A study of Mus musculus with 6 samples.

Results

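The genes described here are 10 transcripts of the circadian clock (Per1, Per2, Per3, Cry1, Cry2, Nr1d1, Nr1d2, Dbp, Arntl and Clock) out of 32285 features in the count table. They were chosen by name with earlier results of these data known, so their differences between genotypes are given as a description with no test. Counts came from cDC1s (type 1 conventional dendritic cells), which are specialised to present captured antigen to CD8 T cells, which had been sorted out of the mLN of C57BL/6 mice. The 3 wild-type (WT) libraries were compared with 3 libraries of the genotype Vps33BdeltaDC (KO), a conditional deletion of Vps33b, which encodes a protein of endosomal and lysosomal membrane traffic. In both groups the cells were taken 24 h after an intranasal dose of 50 µg of house dust mite (HDM). The sources used here do not give the promoter that drives the deletion, the hour of day at the sort, the age of the mice or whether each library is of another animal. The spread behind the p-values below is that of these samples and could be technical.

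The mammalian clock is a feedback loop of transcription that runs in nearly every cell, dendritic cells and macrophages included. CLOCK and its partner BMAL1, the product of Arntl, bind E-boxes and drive the genes of the period (Per) and cryptochrome (Cry) proteins, which return to the nucleus and inhibit CLOCK and BMAL1. The same pair drives Nr1d1 and Nr1d2, which encode the repressors REV-ERB alpha and REV-ERB beta of Arntl, and Dbp, whose product activates genes through D-boxes. Here Per, Cry and Nr1d genes with Dbp are called the negative limb and output (8 genes), and Arntl with Clock the positive limb (2 genes).

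Promoters of the 3 genes whose WT and KO values did not overlap, and of Cry1, which lay in the other direction, are shown because they hold elements through which the loop is known to act. RefSeq promoter windows (GRCm38.p6, the assembly of mm10) reached from 250 bases before the transcript start to 50 after it and were found for 9 of the 10 genes, all but Per2. The 250 bases before the start are printed 5′ to 3′ on the strand of the gene, with motif matches in capitals.

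Per1 (chr11:69098699-69098948, plus strand): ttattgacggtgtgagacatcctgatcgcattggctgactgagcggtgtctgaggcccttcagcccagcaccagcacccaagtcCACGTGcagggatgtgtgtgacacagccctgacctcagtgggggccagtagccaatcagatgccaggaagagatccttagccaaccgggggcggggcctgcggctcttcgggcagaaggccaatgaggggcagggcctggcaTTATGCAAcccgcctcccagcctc

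Per3 (chr4:151044666-151044915, minus strand): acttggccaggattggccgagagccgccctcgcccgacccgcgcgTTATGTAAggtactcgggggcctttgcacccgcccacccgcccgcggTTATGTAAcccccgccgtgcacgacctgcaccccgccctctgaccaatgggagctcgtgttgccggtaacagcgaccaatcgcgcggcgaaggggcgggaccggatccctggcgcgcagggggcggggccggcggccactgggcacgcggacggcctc

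Cry2 (chr2:92434070-92434319, minus strand): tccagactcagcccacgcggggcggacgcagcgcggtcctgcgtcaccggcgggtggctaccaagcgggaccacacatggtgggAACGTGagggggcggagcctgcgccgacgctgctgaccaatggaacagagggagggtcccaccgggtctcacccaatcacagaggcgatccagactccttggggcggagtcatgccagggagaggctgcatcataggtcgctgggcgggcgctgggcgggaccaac

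Cry1 (chr10:85185055-85185304, minus strand): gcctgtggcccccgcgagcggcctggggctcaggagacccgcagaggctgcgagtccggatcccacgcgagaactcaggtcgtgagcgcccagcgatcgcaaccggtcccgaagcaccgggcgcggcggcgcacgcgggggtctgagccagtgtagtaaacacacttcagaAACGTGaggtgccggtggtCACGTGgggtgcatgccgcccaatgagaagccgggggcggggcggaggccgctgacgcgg

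The Per1 window lies within the Per1 gene of the GENCODE M21 annotation, whose longest model starts farther upstream, and the Per3 window lies within the neighbouring gene Camta1 with no exon base. The last 10 bases of the Cry1 window are exonic in that annotation. Both strands were searched for CACGTG (E-box), CACGTT (a variant E-box, AACGTG on the other strand), TTATGNAA (D-box), the element shared by ROR and REV-ERB receptors and TGACGTCA (the cAMP response element). These motifs do not overlap each other in the 4 windows. Per1 held an E-box that begins 166 bases before the start and a D-box that begins 24 bases before it. A second Per1 window, not printed, held no match. Per3 held 2 D-boxes, at 205 and 158 bases before the start, and no E-box. Cry2 held a variant E-box at 166 bases, whereas Cry1 held an E-box at 60 and a variant at 79 bases.

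Of the other matched genes, Nr1d1 held a variant E-box at 28 bases before its start, and a second Arntl window held the receptor element as AAGTAGGTCA within the 50 bases after the start. No match was found in these windows for Nr1d2, Dbp or Clock. An E-box was thus in the window of 2 of the 9 matched genes, a variant E-box in 3, a D-box in 2 and the receptor element in 1, while the cAMP response element was in 0. Of all 27025 genes with a window of this length, 8.09% held an E-box, 5.44% the variant, 3.99% a D-box, 0.259% the receptor element and 2.03% the cAMP response element. A match is a description of the letters and not a shown binding site. Across the table, the 1118 tested genes with CACGTG in a window had a median log2 difference (KO minus WT) of 0.0, with 551 below 0 and 567 above, and the median of all 12568 genes tested was 0.0 too.

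Library totals ranged from 11755944 to 18450678 counts. Levels below are CPM, counts scaled to the library total after TMM normalization. Vps33b itself was at 13.8 to 19.1 CPM in the WT libraries and at 5.0 to 8.29 CPM in the KO libraries, with no overlap. All 10 cDC1 markers checked were detected in every library, and they summed to 2440 to 3000 CPM. Genes of mature, migrating dendritic cells (Ccr7, Fscn1, Il12b, Cd80, Cd86) summed to 11200 to 14800 CPM, with the highest sums in KO replicates 2 and 3 (13400 and 14800 CPM). B cell genes summed to 9.85 to 30.2 CPM, T cell genes to 18.6 to 25.6, NK genes to 0.701 to 2.09 and plasmacytoid dendritic cell genes to 29.3 to 57.6. Monocyte or macrophage genes summed to 147 to 266 CPM in 5 libraries and to 540 CPM in KO replicate 3, which also had the most neutrophil transcripts (5.29 CPM against 0.676 to 1.27). Haemoglobin genes summed to 1.48 to 102 CPM. The neutrophil marker Ly6g was at 0 in 5 of 6 libraries. Single markers named here and in the account of markers by genotype were picked with their values known.

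Few genes passed the adjusted threshold between KO and WT by the tools run. By edgeR's quasi-likelihood test, 0 (0.0%) of 12568 genes passed an adjusted p of 0.05, and 725 (5.77%) had an unadjusted p below it, 384 (3.06%) lower and 341 (2.71%) higher in KO. DESeq2 called 10 genes (0.0797% of those it gave an adjusted p) and limma-voom 0. The deleted gene Vps33b, at a log2 difference of -1.28 ± 0.27 (SE), had an edgeR adjusted p of 0.834. A missed threshold thus does not show that the levels were alike. Every KO library was below every WT library for 652 genes (5.19%) and above for 686 (5.46%).

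No marker passed the adjusted threshold, but the sums leave out how single markers stood by genotype. Of the 10 cDC1 markers, 8 had a log2 difference below 0 (49.4% of all genes tested), with a median of -0.42. An unadjusted p under 0.05 was found for 4 of them lower in KO (3.06% of all genes) and for 0 higher (2.71%). Every KO library was below every WT library for 3 (5.19% of all genes). These were Xcr1, the chemokine receptor that marks cDC1s, with 13.1 to 44.6 CPM in WT and 5.72 to 11.4 in KO (-1.43 ± 0.59, log2 difference with SE), Wdfy4, needed for cross-presentation (-0.89 ± 0.25), and Itgax, which encodes CD11c (-0.56 ± 0.16). Clec9a was the fourth, at -0.38 ± 0.17. All 5 genes of mature dendritic cells lay above 0, beside 6360 of the 12568 genes tested, with a median of 0.25. An unadjusted p under 0.05 was found for 1 higher in KO (2.71% of all genes), Cd80 (0.63 ± 0.19), and for 0 lower (3.06%). The groups overlapped for all 5.

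Among markers of other cells, KO was below WT with no overlap for Siglech of the plasmacytoid list, Cd14 of the monocyte or macrophage list and Cd4 of the T cell list. These were 1 gene of each list, beside 5.19% of all genes tested. Below 0 lay 3 of 4 tested plasmacytoid genes, 4 of 5 of monocytes or macrophages and 1 of 4 of T cells. Of all genes tested, 49.4% lay below 0. The list medians were -1.16, -0.51 and 0.36. Cd3d, Cd3e and Cd3g lay above 0 (0.4, 0.47 and 0.33), as did Lyz2 (0.76 ± 0.63) and Tcf4 (0.03 ± 0.2). The Cd3 genes thus lay opposite to Cd4, and they were at 1.48 to 6.53 CPM. Which cells gave the Cd4 counts was not tested. Siglech was at 3.85 to 12.6 CPM in WT and at 0.0 to 3.33 in KO (-2.32 ± 0.78), Cd14 at 14.9 to 28.4 and 3.48 to 10.6 (-1.75 ± 0.41) and Cd4 at 12 to 18.3 and 6.19 to 11.2 (-0.89 ± 0.30). Ly6d, also of plasmacytoid cells, had overlapping groups and a log2 difference of -1.61 ± 0.63. Each had an unadjusted p under 0.05, and the edgeR adjusted p of the markers without overlap was 0.834. Siglech, Cd14, Cd4, Ly6d and 8 of the 10 cDC1 markers had log2 differences below 0, as did most of the clock genes described next. The other cDC1 markers, Batf3 (0.09 ± 0.15) and Irf8 (0.12 ± 0.14), lay above 0. Summed over the list, cDC1 markers averaged 2790 CPM for the WT libraries against 2730 for the KO ones, with SDs of 110 and 281. The part of any of these markers in the values of the clock genes was not tested.

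Most genes of the negative limb and output had a lower mean in KO, and so did both genes of the positive limb. All 10 genes passed the filter on low counts. Of the 8 genes of the negative limb and output, 7 had a log2 difference below 0, beside 49.4% of all genes tested, with a median of -0.51. For 3 of them (Per1, Per3 and Cry2) every KO library was below every WT library, beside 5.19% of all genes tested. Both genes of the positive limb lay below 0, with a mean of -0.16, and their groups overlapped. Arntl (-0.24 ± 0.27, SE) stood near Per2 (-0.27 ± 0.51), Nr1d2 (-0.33 ± 0.27) and Dbp (-0.37 ± 0.32). Below these lay Per1, Per3, Cry2 and Nr1d1, from -0.65 to -1.65, and Cry1 lay above 0. The 10 genes were chosen on this contrast, so nothing is read from the counts.

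**Figure D1:**
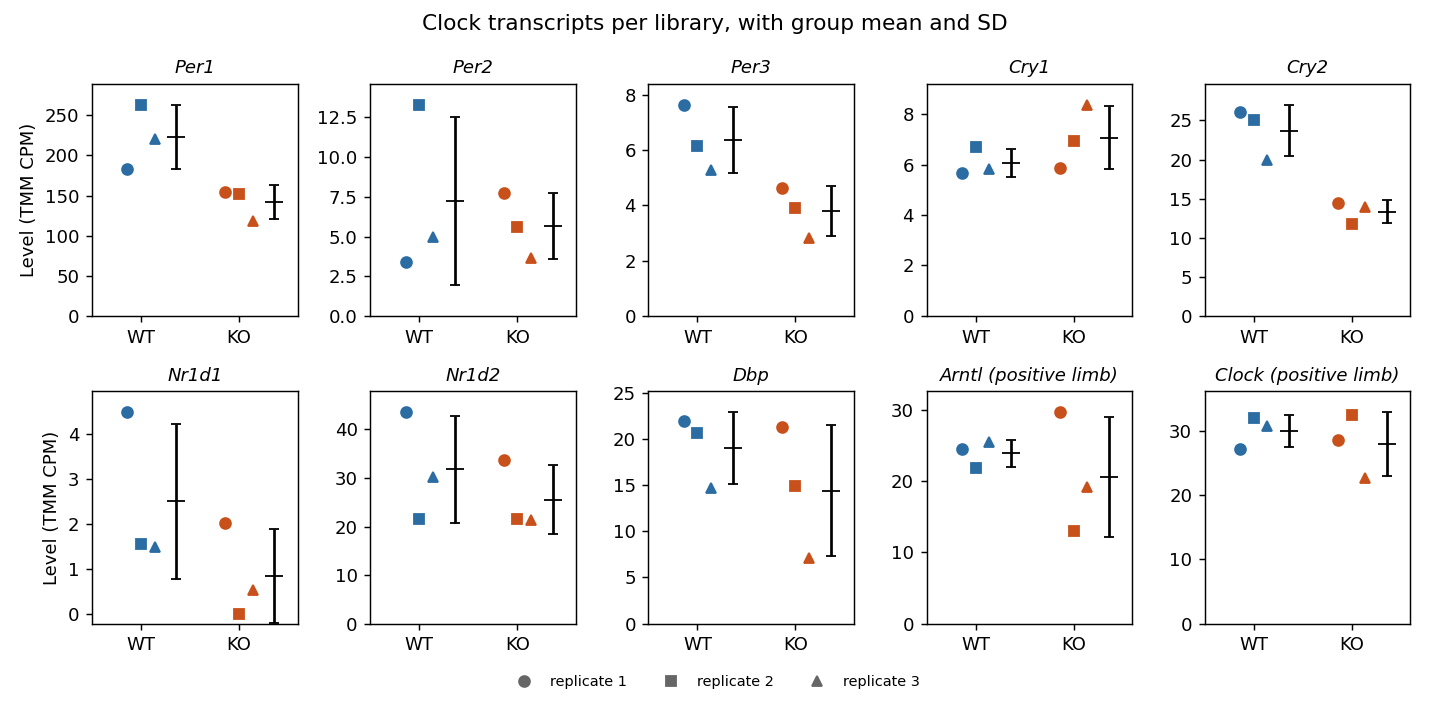
Level in TMM-normalized CPM (y axis) of the 10 clock genes in each WT and KO library (points, marker shape by replicate), with the group mean and SD (n = 3 each) in black. The KO points of Per1, Per3 and Cry2 sit below all WT points, while those of the other 7 genes overlap with WT.

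Per1 (ENSMUSG00000020893, chromosome 11, 69095217 to 69109960 in mm10) encodes a period protein and is also known as a gene induced quickly by cAMP and by glucocorticoids. It was the most abundant of the 10, at 183, 263 and 221 CPM in WT and at 155, 152 and 118 CPM in KO. The 3 KO libraries were the lowest 3, and KO replicate 3 was the lowest of all. The WT mean was 223 ± 40.2 CPM against a KO mean of 142 ± 20.8 CPM (SD, n = 3 each). KO thus held 63.6% of the WT level, a log2 difference of -0.65 ± 0.16 (SE).

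Cry2 (ENSMUSG00000068742, chromosome 2, 92403646 to 92434043), a cryptochrome that represses CLOCK and BMAL1, showed the clearest gap between the groups among the 10. It was at 26.1, 25.0 and 19.9 CPM in WT and at 14.4, 11.7 and 13.9 CPM in KO. The KO libraries lay close together, with a coefficient of variation of 10.9%, and the nearest WT value was 19.9 CPM. KO held 56.4% of the WT level, and the log2 difference was -0.83 ± 0.21 (SE). An overlap of 4.67% of the exon bases of Cry2 was found with D930015M05Rik, a transcript on the other strand that had at most 0.495 CPM in any library.

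Per3 (ENSMUSG00000028957, chromosome 4, 151003652 to 151044665), the period gene whose loss is known to disturb the mouse clock least, was at 7.64, 6.15 and 5.29 CPM in WT and at 4.64, 3.91 and 2.82 CPM in KO. The groups did not overlap, but WT replicate 3 and KO replicate 1 were near each other. These levels rest on 91 to 139 counts in WT and 32 to 67 counts in KO. KO held 59.6% of the WT level, a log2 difference of -0.72 ± 0.34 (SE).

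Cry1 (ENSMUSG00000020038, chromosome 10, 85131700 to 85185064) was the exception in the negative limb. This cryptochrome, the stronger repressor of the pair and known to peak later in the cycle than most genes of this limb, was at 5.66, 6.7 and 5.82 CPM in WT and at 5.87, 6.95 and 8.38 CPM in KO. The groups overlapped, and the KO mean of 7.07 ± 1.26 CPM was 117% of the WT mean of 6.06 ± 0.556 CPM (SD, n = 3 each). The log2 difference of 0.22 ± 0.29 (SE) was smaller than its error, and it was 0.09 with KO replicate 3 left out, against 0.33 with KO replicate 1 left out.

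Per2 (ENSMUSG00000055866, chromosome 1, 91415982 to 91459324) varied more within WT than between the groups. It was at 3.41, 13.3 and 4.98 CPM in WT and at 7.75, 5.61 and 3.62 CPM in KO. WT replicate 2 alone carried the higher WT mean, and its coefficient of variation in WT was 73.4%. The log2 difference was -0.27 ± 0.51 (SE), and it was 0.45 without WT replicate 2. Leaving out the other WT libraries gave -0.62 (replicate 1) and -0.47 (replicate 3), and leaving out KO libraries gave -0.53 (replicate 1) and -0.07 (replicate 3).

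The genes of the REV-ERB repressors were lowest in KO replicates 2 and 3. Nr1d2 (ENSMUSG00000021775, chromosome 14, 18204054 to 18239127) was at 43.5, 21.6 and 30.2 CPM in WT and at 33.7, 21.5 and 21.3 CPM in KO. WT replicate 2 was as low as the lower KO libraries, so the groups overlapped, and the log2 difference was -0.33 ± 0.27 (SE). Leaving out WT replicate 1 gave -0.03, leaving out WT replicate 2 gave -0.54, and leaving out KO replicate 1 gave -0.58.

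Nr1d1 (ENSMUSG00000020889, chromosome 11, 98767932 to 98775333) was close to the detection limit. It had 82, 23 and 28 counts in WT, or 4.51, 1.56 and 1.48 CPM, and 28, 0 and 6 counts in KO, or 2.03, 0.0 and 0.529 CPM. A count of 0 in KO replicate 2 allows up to 0.175 CPM at that depth (3 counts, counting error only). KO replicate 1 was above 2 of the WT libraries. The fitted log2 difference of -1.65 ± 0.85 (SE) depends on how the 0 is treated, and it was -3.07 with limma-voom. It depends on single libraries too, and was -3.55 when KO replicate 1 was left out. Leaving out KO replicate 2 gave -0.93, and leaving out WT replicate 1 gave -0.9. An overlap of 8.55% of the exon bases of Nr1d1 was found with Thra on the other strand, a thyroid hormone receptor gene whose mean was 1.76 ± 0.786 CPM in WT against 2.93 ± 0.541 CPM in KO (SD, n = 3 each).

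Dbp (ENSMUSG00000059824, chromosome 7, 45705088 to 45710203), the output activator of the PAR bZIP family, varied widely among the KO libraries. It was at 21.9, 20.6 and 14.7 CPM in WT and at 21.3, 14.9 and 7.14 CPM in KO. KO replicate 1 was at the WT level and KO replicate 3 at the lowest value. The log2 difference was -0.37 ± 0.32 (SE), -0.71 without KO replicate 1 and -0.09 without KO replicate 3. An overlap of 18% of the exon bases of Dbp was found with Sphk2 on the other strand, a sphingosine kinase gene whose mean was 77.0 ± 6.91 CPM in WT against 82.1 ± 1.91 CPM in KO. Counts of Dbp, Nr1d1 and Cry2 may be affected at the shared bases, since it is not stated whether strand was used in the counting. The share of bases does not give the share of reads affected.

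In the positive limb, Arntl (ENSMUSG00000055116, chromosome 7, 113207465 to 113314126) was at 24.5, 21.8 and 25.5 CPM in WT and at 29.6, 13 and 19.1 CPM in KO. KO replicate 1 was the highest of the 6 libraries and KO replicate 2 the lowest. The coefficient of variation was 7.84% in WT and 40.9% in KO. The log2 difference was -0.24 ± 0.27 (SE), 0.02 without KO replicate 2 and -0.62 without KO replicate 1.

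Clock (ENSMUSG00000029238, chromosome 5, 76209868 to 76304792) was at 27.1, 31.9 and 30.8 CPM in WT and at 28.6, 32.5 and 22.7 CPM in KO. Its values overlapped, with the highest in KO replicate 2 and the lowest in KO replicate 3. KO held 93.3% of the WT level, a log2 difference of -0.08 ± 0.19 (SE), and 0.03 without KO replicate 3. It was -0.23 with KO replicate 2 left out, and -0.15 and -0.04 with WT replicates 1 and 2 left out in turn.

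**Figure D2:**
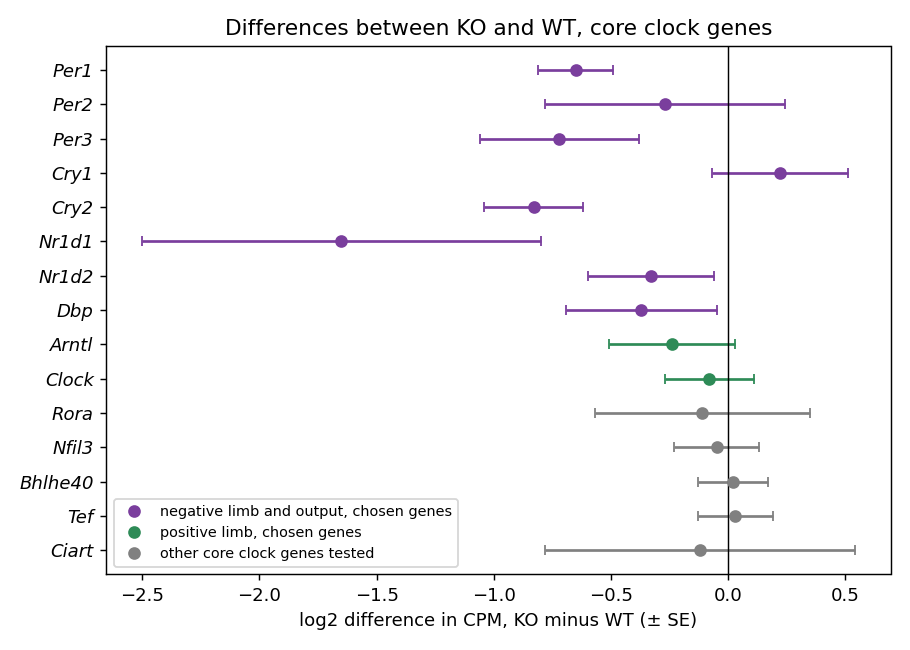
Log2 difference in CPM, KO minus WT, with its SE (x axis) from the edgeR fit of 3 WT and 3 KO libraries, for the 10 chosen clock genes and the 5 other core clock genes tested. Cry2, Per3, Per1 and Nr1d1 lie farthest to the left, from -0.65 to -1.65, and the other core clock genes lie within 0.12 of 0.

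Averaged over the genes of a limb, KO replicate 1 stood with the WT libraries, and KO replicates 2 and 3 stood apart. The mean log2 CPM of the negative limb and output was 3.96, 3.93 and 3.62 in WT and 3.7, 2.94 and 2.99 in KO. That of the positive limb was 4.69, 4.73 and 4.81 in WT and 4.87, 4.37 and 4.39 in KO. KO replicates 2 and 3 were thus the lowest libraries for both limbs. The same 2 libraries had the highest sums of mature dendritic cell genes, and the part of this in the clock values was not tested. In bulk samples, fewer cells of a type and less RNA per cell cannot be told apart.

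Set against each other within a library, the limbs differed less between the genotypes. The negative limb and output minus the positive limb, on the log2 scale, was -0.74, -0.8 and -1.19 in WT and -1.17, -1.43 and -1.4 in KO. KO replicate 1 and WT replicate 3 met in the middle, so the groups overlapped. The difference between the group means was -0.42 with Nr1d1 and -0.22 without it. Without Nr1d1 the library values were -0.49, -0.35 and -0.77 in WT and -0.8, -0.58 and -0.88 in KO. KO replicate 2 was then above WT replicate 3.

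**Figure D3:**
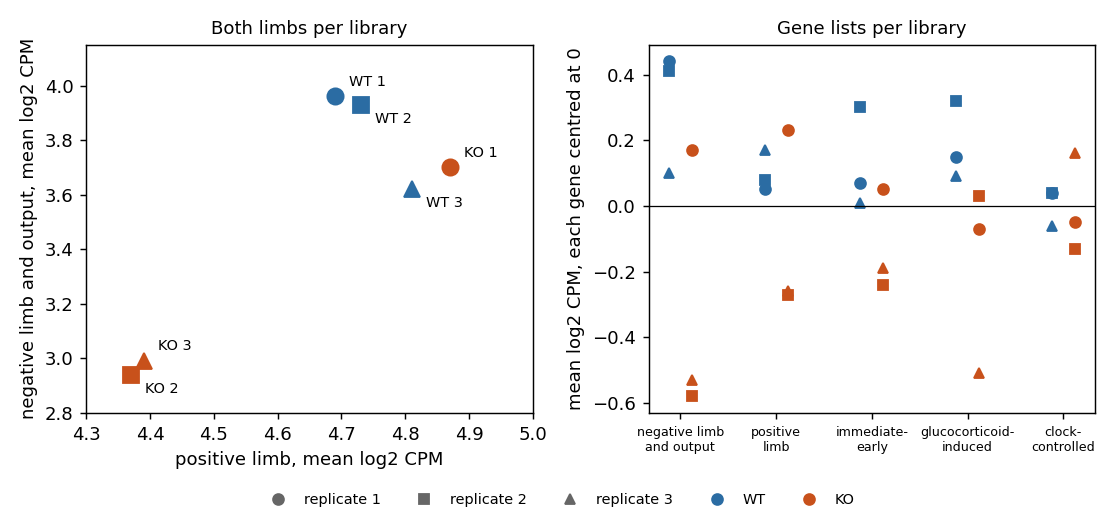
Left, mean log2 CPM of the positive limb (x axis) against that of the negative limb and output (y axis) in the 6 libraries. Right, mean log2 CPM of 5 gene lists per library (y axis), each gene centred at 0 over the 6 libraries. KO replicates 2 and 3 lie at the lower left, at 2.94 and 2.99 on the y axis, and KO replicate 1 lies near WT replicate 3.

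Levels were compared between genes only per kb of exon, since long transcripts yield more reads. Of the 10, Per1 was highest at 32.3 ± 9.38 CPM per kb (SD over the 6 libraries), and its lowest library was above the highest library of every other one. Dbp (5.6 ± 1.9) and Nr1d2 (5.29 ± 1.66) followed, near the median of 4.74 CPM per kb over all genes tested, and their ranges overlapped. Arntl (2.96 ± 0.764), Cry2 (2.93 ± 0.966), Clock (2.11 ± 0.267) and Cry1 (1.96 ± 0.309) came next, and each overlapped with its neighbour in that order. Per2 (1.1 ± 0.631), Nr1d1 (0.547 ± 0.51) and Per3 (0.528 ± 0.177) were lowest, and their ranges overlapped too.

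Core clock genes outside the 10 included the most abundant clock transcripts of these cells. Bhlhe40, which encodes the E-box repressor DEC1, was at 262 ± 32.5 CPM per kb (SD, n = 6), and Nfil3, which encodes a D-box repressor also needed for cDC1 development, was at 118 ± 21.8 CPM per kb. Both were above Per1 in every library. Tef, a relative of Dbp, was at 8.86 ± 1.1 CPM per kb, above all of the 10 except Per1 on average. Rora, which activates Arntl, was at 0.657 ± 0.317 CPM per kb, and Ciart, a CLOCK and BMAL1 repressor, at 0.678 ± 0.404. The other 5 (Npas2, Arntl2, Rorb, Bhlhe41 and Hlf) were not tested because of low counts, with at most 1.96 CPM in any library. Mean CPM in WT and KO was 1.09 and 0.175 for Npas2, 0.858 and 0.411 for Rorb and 0.793 and 0.472 for Bhlhe41. It was 0.488 and 0.0 for Hlf and 0.0 and 0.209 for Arntl2, and the groups overlapped for each.

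**Figure D4:**
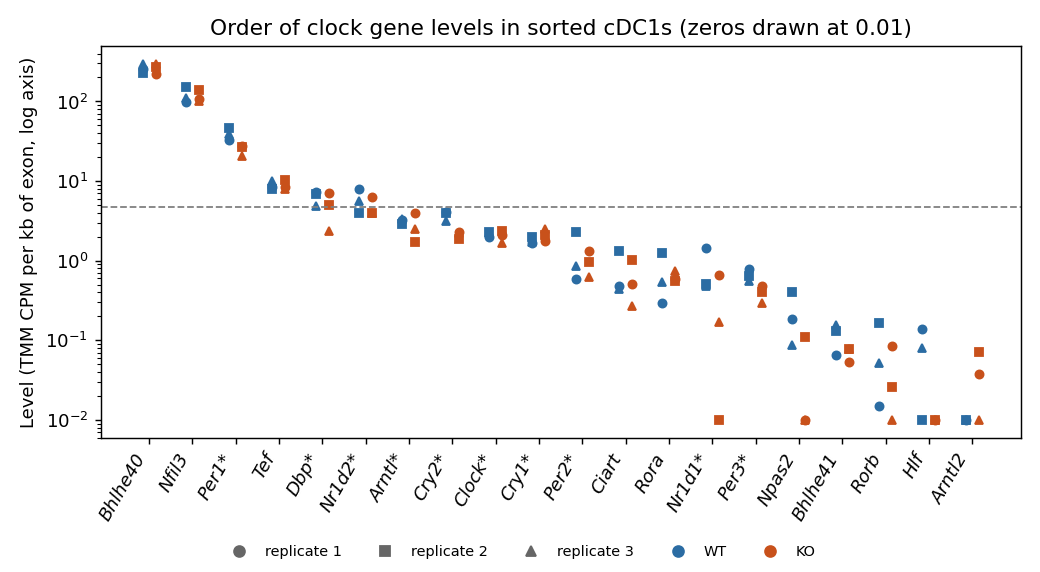
Level in CPM per kb of exon (y axis, log scale, zeros drawn at 0.01) of 20 core clock genes in order of their mean over the 6 libraries. Asterisks mark the 10 chosen genes, and the dashed line is the median of 4.74 CPM per kb over all genes tested. Bhlhe40, Nfil3 and Per1 stand above the rest in all 6 libraries.

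The log2 differences of those other core clock genes that were tested lay close to 0. Of 10 genes, 5 were tested, and 0 had an adjusted or an unadjusted p under 0.05 by the edgeR quasi-likelihood test, with a median log2 difference of -0.05. Bhlhe40 was at 1190, 1070 and 1400 CPM in WT and at 1050, 1270 and 1390 CPM in KO (0.02 ± 0.15, log2 difference with SE). Nfil3 was at 202, 304 and 224 CPM in WT and at 215, 285 and 205 CPM in KO (-0.05 ± 0.18), and replicate 2 was the highest library of both groups. Tef, with 2 E-box windows, was at 65.8, 62.3 and 79.1 CPM in WT and at 66.3, 82.0 and 62.6 CPM in KO (0.03 ± 0.16). The log2 difference was -0.11 ± 0.46 for Rora, where WT replicate 2 had 16.2 CPM against 3.9 to 9.61 in the others, and -0.12 ± 0.66 for Ciart. Their adjusted p-values ranged from 0.98 to 0.99. A p that misses the threshold does not show that the levels were alike.

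Kinases, ubiquitin ligases and cofactors that act on clock proteins had log2 differences spread around 0. Of 33 genes 32 were tested, 18 below and 14 above 0, with a median log2 difference of -0.01. An adjusted or unadjusted p under 0.05 was found for 0, and 5.77% of all genes tested had an unadjusted one. The smallest p-values were those of Ncor1, the corepressor used by REV-ERB proteins (-0.23 ± 0.13, adjusted p = 0.836), Btrc, a ligase subunit that targets PER proteins (-0.34 ± 0.20, adjusted p = 0.839), and Csnk1e, a PER kinase (-0.35 ± 0.22, adjusted p = 0.853), all by edgeR. The groups did not overlap for 4, all lower in KO (5.19% of all genes tested, and 5.46% higher): Ncor1, Btrc, Wdr5 and Kmt2a, of which the last pair was chosen after the values were seen. Known clock-controlled genes of liver and leukocytes had a median of -0.03 over 21 tested. An unadjusted p under 0.05 was found for 1 higher in KO (2.71% of all genes) and 0 lower (3.06%), so nothing is read from this count. The gene was Gpx1, a glutathione peroxidase gene, at 157, 156 and 156 CPM in WT and at 146, 244 and 241 CPM in KO (0.43 ± 0.18, edgeR adjusted p = 0.834). Its higher libraries were again KO replicates 2 and 3. Ccr2 (-1.09 ± 0.56) and Tfrc (0.61 ± 0.38) had the next smallest p-values.

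Among genes linked to the stimuli that induce Per1, 0 passed the adjusted threshold of edgeR's test. Of 20 tested genes in the list for cAMP and serum, 16 were below 0 (49.4% of all genes), with a median log2 difference of -0.26. This list also holds genes of CREB coactivators: Crtc1 (0.07), Crtc2 (-0.15) and Crtc3 (-0.15). At an unadjusted p under 0.05, KO was lower for 2 (3.06% of all genes) and higher for 0 (2.71%), and the groups did not overlap for 0. Sik1, a kinase gene induced by CREB, was at 38.6, 69.7 and 53.7 CPM in WT and at 40.5, 33.5 and 25.9 CPM in KO (-0.68 ± 0.23). Btg2, an antiproliferative gene, was at 316, 451 and 338 CPM in WT and at 331, 261 and 192 CPM in KO (-0.49 ± 0.20), and Ier2 had a log2 difference of -0.31 ± 0.15. The adjusted p of all of these was 0.834 by edgeR. For Sik1 and Btg2, KO replicate 1 lay within the WT range and KO replicates 2 and 3 below it.

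Of 17 tested genes induced by glucocorticoids, 15 were below 0 (49.4% of all genes), with a median of -0.18. An unadjusted p under 0.05 was found for 2 lower in KO (3.06% of all genes) and 0 higher (2.71%), and every KO library was below every WT library for 2 (5.19%), Sgk1 and Il1r2. Sgk1, a kinase gene, was at 108, 127 and 97.7 CPM in WT and at 80.1, 87.0 and 56.6 CPM in KO, with no overlap (-0.57 ± 0.17). Tgm2, a transglutaminase gene, was at 21.4, 9.87 and 13.4 CPM in WT and at 5.72, 8.0 and 12.5 CPM in KO (-0.82 ± 0.35), and Il1r2, the decoy receptor of interleukin 1, had a log2 difference of -0.71 ± 0.35 with no overlap. The edgeR adjusted p of all of these was 0.834. The mean of this list, with each gene centred at 0 on the log2 scale, was 0.15, 0.32 and 0.09 in WT and -0.07, 0.03 and -0.51 in KO. That of the cAMP and serum list was 0.07, 0.3 and 0.01 in WT and 0.05, -0.24 and -0.19 in KO, with KO replicate 1 inside the WT range. The part of these lists in the level of Per1 was not tested.

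**Figure D5:**
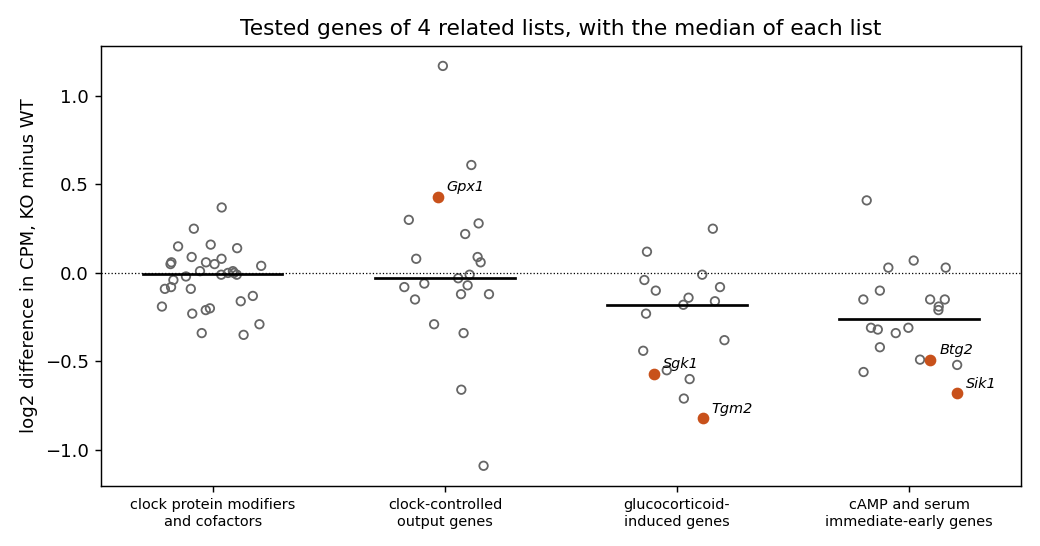
Log2 difference in CPM, KO minus WT (y axis), of the tested genes in 4 lists, with the median of each list as a bar. Filled, named points have an unadjusted p under 0.05 by edgeR. The medians are -0.01, -0.03, -0.18 and -0.26 from left to right.

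Genes whose pattern over the 6 libraries was most like the difference between the limbs were ranked by Pearson r of log2 CPM among the 9202 protein-coding genes that averaged at least 5 CPM. The highest were Btbd3 (r = 0.991), Lsg1 (0.99), Zbtb24 (0.988), Dnajc11 (0.987) and Zfp12 (0.983), and the lowest Rbm42 (-0.991), Mfsd5 (-0.987), Plk4 (-0.981), Timm17b (-0.978) and Plin3 (-0.977). After each group was centred at its own mean, r was 0.964 to 0.998 for the first 5 and -0.977 to -0.939 for the others. Zfp12, for example, was at 21.2, 22.2 and 13.2 CPM in WT and at 11.2, 8.41 and 9.08 CPM in KO. With 6 libraries that share their depth and scaling with the clock genes, 79 genes had an r above 0.9 and 123 below -0.9, and the ranking is a description only. The score used includes Nr1d1, which is close to the detection limit. Without Nr1d1 the score was -0.58 in KO replicate 2 and -0.77 in WT replicate 3, against -1.43 and -1.19 with it. The ranking was not repeated without Nr1d1.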

How the data were processed

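Read counts per gene were available for 3 WT and 3 KO libraries of sorted cDC1s. The values deposited by the authors are raw counts for each Ensembl gene. The submitters' processing notes name HISAT2 2.0.5, HTSeq and mm10, but the sources used here give neither the annotation release nor whether strand or multiply matching reads were used. The library label in a sample's description gave its column. Symbols, positions and exon lengths came from GENCODE M21 (mm10), which named 32235 of 32285 features, and promoter windows from RefSeq (GRCm38.p6).

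Genes were kept by filterByExpr of edgeR 4.0.16 (12568), scaled by TMM and tested by glmQLFit, with robust estimation and the fit that replaced the older quasi-likelihood one, and glmQLFTest in R 4.3.3. KO was compared with WT with no further term, with p-values adjusted by Benjamini-Hochberg over every gene tested (threshold 0.05). A log2 difference divided by the root of its F statistic gave its SE. Log2 CPM for means over genes used a prior count of 2. The test was checked on simulated data with known changes. Most differences described here were smaller than these changes, and the check does not cover them. The precision of a level is limited by its count, and a count of 0 was read as up to 3 counts, for counting error only.

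The 10 genes and all lists were chosen with earlier results of these data known. Named were these 10, Vps33b, 10 further core clock genes, the 3 genes of each other list with the smallest p, and the 5 genes at either end of the ranking by pattern. 1 gene of the lists is not reported here. Any further gene is marked as picked with its values known, apart from Crtc1, Crtc2, Crtc3 and the genes that overlap a clock gene or its window. The comparison was repeated with upper-quartile or RLE scaling, without a filter or with one of 1 CPM in 3 libraries, with DESeq2 1.42.0 and limma-voom (limma 3.58.1), with replicate number as block, and leaving out every library singly. The older edgeR fit and the leaving out of Nr1d1 were added after the data were examined. Within groups, log2 CPM correlated between 0.928 and 0.958 over genes, and across groups between 0.931 and 0.956. No library was left out of the comparison.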

Additional observations from a re-analysis of the deposited data

How the results depend on the processing

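The directions of Per1, Per3, Cry1, Cry2, Nr1d1, Nr1d2 and Dbp were the same under all 14 settings tried. Per2 turned to 0.45 without WT replicate 2, Arntl to 0.02 without KO replicate 2 and Clock to 0.03 without KO replicate 3. With single libraries left out, the median of the negative limb and output ranged from -0.71 to -0.39, the mean of the positive limb from -0.35 to -0.09 and the difference between the limbs from -0.56 to -0.34. Over the same settings Per2 ranged from -0.62 to 0.45, Arntl from -0.62 to 0.02 and Clock from -0.23 to 0.03. Without Nr1d1, the median was -0.37 and the difference between the limbs -0.22, since Nr1d1 holds the lowest counts and the lowest log2 difference of the 8. Over all genes, 3 passed the adjusted threshold without a filter and 10 with DESeq2, and 0 to 7 with single libraries left out. The count at an unadjusted p under 0.05 ranged from 376 without KO replicate 2 to 1621 without KO replicate 1, and was 444 without KO replicate 3. Among the 37 tested clock genes outside the 10, 0 had an unadjusted p under 0.05 with all libraries, beside 5.77% of all genes tested. With single libraries left out, 0 to 3 had one. There were 3 without WT replicate 2, a setting in which 850 of all genes tested had one, so nothing is read from this count. The cause of these shifts was not tested. Deviations from the group mean correlated by 0.00519, 0.0281 and -0.00126 between libraries of the same number, and by -0.0613 to 0.0441 between the others. With 3 libraries per group these values cannot show whether the numbers pair the samples. The labels do not state it either. With the replicate block, 942 genes had an unadjusted p under 0.05 and 0 an adjusted one. Depth limits Nr1d1, with 0 to 82 counts, and Per3, with 32 to 139.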
